A study of Homo sapiens with 12 samples.

Results

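The genes described here are the hypoxia-inducible factors (HIF) HIF1A, EPAS1 and HIF3A, the tumour suppressor gene VHL, and 35 HIF targets with no role in glycolysis or as an oxygen-dependent dioxygenase. They were chosen by name from the gene count table, and all 39 were found among its 54261 gene symbols. RNA had been sequenced in a pair of long-established lines of human colorectal cancer cells, SW480 and DLD1, with lactate treatment or without it. There were 3 libraries in each of 4 groups, namely SW480 with lactate, SW480 without it, DLD1 with lactate and DLD1 without it, and the series describes them as biological replicates. The labels name no genetic change, both lines went through the same harvest with Trizol, and the labels state neither how much lactate was used nor for how long. Each group is labelled as 1 line, so it stands for repeated cultures under that label and not for several tumours.

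HIF is a transcription factor made of an oxygen-regulated alpha subunit, encoded by HIF1A, EPAS1 or HIF3A, and a stable partner encoded by ARNT. In the presence of oxygen, prolyl hydroxylases of the EGLN family mark the alpha subunit, and the VHL protein then directs it to a ubiquitin ligase for degradation. When oxygen is low the alpha subunit persists, binds DNA at sites with the core letters ACGTG, or GCGTG in their place, and raises genes for blood vessel growth, mitochondrial turnover, lipid storage and feedback control. Most of this control acts on the protein, which was not measured here.

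Levels are given as CPM, a gene's count per 1000000 counts of its library, and group values as mean ± SD over n = 3 libraries. CPM is a share of the library's RNA, so fewer cells with a transcript and less transcript per cell cannot be told apart. Fold changes are log2 values from edgeR's quasi-likelihood model with their standard error (SE). A gene is called where the Benjamini-Hochberg adjusted p over all 17572 tested genes is below 0.05. Of the 39 genes, 38 were tested. HIF3A was too low, with 2, 0 and 2 counts in the SW480 lactate libraries and 1, 2 and 5 in the SW480 controls. It had 3, 1 and 3 counts in the DLD1 lactate libraries and 3, 0 and 0 in the DLD1 controls.

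The libraries held 12302311 to 22662063 counts. Their line labels were checked against cell type markers. In all 6 libraries labelled SW480, 5 of 8 colorectal epithelial markers lay under 2 CPM, among them EPCAM at 0.609 ± 0.220 CPM with lactate and 0.964 ± 0.184 CPM without, and CDH1 at 1.28 ± 0.0852 and 1.45 ± 0.131 CPM. The keratin genes KRT8, KRT18 and KRT19 were present, at 95.8 to 1316 CPM on average. The 6 fibroblast markers summed to 244 to 257 CPM with lactate and 248 to 261 CPM without, mostly COL3A1 and DCN. DLD1 libraries held EPCAM at 671 ± 14.6 CPM with lactate and 701 ± 13.8 CPM without, and fibroblast sums of 9.97 to 11.9 and 8.64 to 11.0 CPM. These markers go against part of the SW480 label, and "SW480" below means the libraries so labelled. Leukocyte markers summed to at most 6.92 CPM and endothelial ones to at most 4.46 CPM. The DLD1 control libraries 2 and 3 stood apart. Their log2 difference from the other 2 of the group had an SD of 0.602 and 0.495 across genes, against 0.294 to 0.410 in the other 10 libraries, and followed transcript GC content with Spearman's rho -0.68 and 0.70.

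Sequence just upstream of the start is shown for 4 of the genes. These SW480 responders had the smallest p among those with a listed promoter holding the core letters in the RefSeq table used (GRCh38.p14). Each run is the 250 bases before the start, 5′ to 3′ on the gene's strand, and capitals mark the core letters on either strand. They lie at chr4:185396591-185396840 (plus strand) for ANKRD37, chr2:46297157-46297406 (plus) for EPAS1, chr12:26125038-26125287 (minus) for BHLHE41 and chr3:4979187-4979436 (plus) for BHLHE40.
ANKRD37: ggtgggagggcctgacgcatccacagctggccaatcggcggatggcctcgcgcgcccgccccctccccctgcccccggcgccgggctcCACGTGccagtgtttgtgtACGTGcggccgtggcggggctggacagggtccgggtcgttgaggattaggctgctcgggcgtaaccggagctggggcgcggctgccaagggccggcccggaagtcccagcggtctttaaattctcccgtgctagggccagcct
EPAS1: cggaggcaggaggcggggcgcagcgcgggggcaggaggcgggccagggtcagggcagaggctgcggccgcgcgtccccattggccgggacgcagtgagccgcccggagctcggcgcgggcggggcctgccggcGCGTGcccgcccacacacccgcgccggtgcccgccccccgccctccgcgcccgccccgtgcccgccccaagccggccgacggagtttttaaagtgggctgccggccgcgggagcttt
BHLHE41: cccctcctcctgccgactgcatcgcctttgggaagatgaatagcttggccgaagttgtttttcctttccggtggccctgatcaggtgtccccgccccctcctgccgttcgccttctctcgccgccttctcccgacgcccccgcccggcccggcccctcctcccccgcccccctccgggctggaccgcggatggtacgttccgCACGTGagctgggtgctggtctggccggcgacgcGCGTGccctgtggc
BHLHE40: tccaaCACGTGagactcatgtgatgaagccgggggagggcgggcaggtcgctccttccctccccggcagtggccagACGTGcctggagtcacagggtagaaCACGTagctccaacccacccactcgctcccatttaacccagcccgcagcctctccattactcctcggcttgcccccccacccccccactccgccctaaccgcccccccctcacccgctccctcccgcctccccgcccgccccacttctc

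ANKRD37 and BHLHE41 each hold CACGTG, which reads the same on both strands and therefore counts as 2 overlapping matches, and each holds 1 further match. BHLHE40 holds the same letters plus 2 single matches, and EPAS1 holds 1 match. The palindrome is also the E-box that many other basic helix-loop-helix factors bind. Over the wider RefSeq window of 250 bases before to 50 after the start, 34 of 44 windows from 29 of the 39 genes held either form of the core letters (77.3%), against 48.4% of all 35116 windows in the table. ACGTG alone was in 45.5% of the genes' windows and 21.4% of all windows, and CACGTG in 22.7% and 7.26%. The genes' windows were also richer in GC, with a median of 68.2% against 58.7%, and windows of 1 gene can overlap. NDRG1, HILPDA and VEGFA had smaller p in SW480 than BHLHE40, but each had 0 windows here. Whether their promoters hold the core letters was therefore not tested. A match is a run of letters and not a measured binding site.

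The first comparison asked which of these genes responded to lactate in SW480. Of the 38 tested, 25 were called higher with lactate and 0 lower, while 6.83% of all tested genes were called higher and 5.59% lower. NDRG1, ANKRD37, BHLHE41, HILPDA and BHLHE40 had the largest called fold changes, and EPAS1 was called as well. The median log2 fold change was 0.60 over the 38 genes and -0.01 over all tested genes. The 3 lactate libraries lay above all 3 controls for 32 of the 38 genes, against 18.9% of all tested genes, and below them for 1, AK4, against 21.9%. Some cell type markers moved with lactate in SW480 as well. The epithelial list summed to 1400 to 1665 CPM with lactate and 1948 to 2298 CPM without. KRT8 fell by 0.51 (adjusted p 0.0318) and KRT18 by 0.61 (adjusted p 0.00610), while KRT19 rose by 0.71 (adjusted p 0.0436). Of the fibroblast list only COL1A1 was called, at 48.7 ± 0.429 CPM with lactate and 21.1 ± 1.90 CPM without (1.23, adjusted p 6.52e-05). COL3A1 and DCN differed by -0.15 and -0.29 and were not called. The part of these markers in the result was not tested.

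Among the factors, EPAS1, which encodes HIF-2 alpha, stood at 789, 766 and 807 CPM in the SW480 lactate libraries, against 374, 421 and 422 CPM in the controls. The groups were well apart, and EPAS1 rose by 0.98 ± 0.10 (adjusted p 8.84e-05). HIF1A, the oxygen-regulated subunit of HIF-1, had 899, 897 and 816 CPM with lactate and 732, 799 and 787 CPM without. These groups did not overlap either, but the difference of 0.20 ± 0.13 was not called (adjusted p 0.348). Per kilobase of the longest annotated transcript, HIF1A averaged 220.1 CPM and EPAS1 152 CPM with lactate, and 195 and 78.5 CPM without it.

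VHL, the substrate adaptor that binds the hydroxylated alpha subunit, had 122, 122 and 124 CPM in the SW480 lactate libraries, against 95.7, 109 and 104 CPM in the controls. Its difference of 0.28 ± 0.10 was not called (adjusted p 0.102), although all 3 lactate libraries were the higher ones. It passed when the trend along GC content and transcript length was removed (adjusted p 0.00312).

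Of 5 genes of growth control and stress, 4 rose. NDRG1, a metastasis suppressor gene that hypoxia induces, had 995, 1241 and 1045 CPM in the SW480 lactate libraries, against 128, 251 and 163 CPM in the controls. Every lactate library was several times above the highest control. The log2 fold change was 2.62 ± 0.23 (adjusted p 2.84e-05), the largest among the 38 genes. ANKRD37, an ankyrin-repeat gene known as a direct HIF target, had 37.8, 70.8 and 50.3 CPM with lactate and 6.88, 12.3 and 9.66 CPM without. The groups were again far apart, and it rose by 2.50 ± 0.25 (adjusted p 6.52e-05). Its exons overlap those of UFSP2 on the opposite strand, and no source used here states whether strand was used in counting. ANKZF1, which takes part in ribosome quality control, rose by 0.53 ± 0.13, and DDIT4, an inhibitor of the growth kinase complex mTORC1, by 0.71 ± 0.17. WSB1, a subunit of a ubiquitin ligase, differed by 0.34 ± 0.11 and was not called (adjusted p 0.0543).

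**Figure D1:**
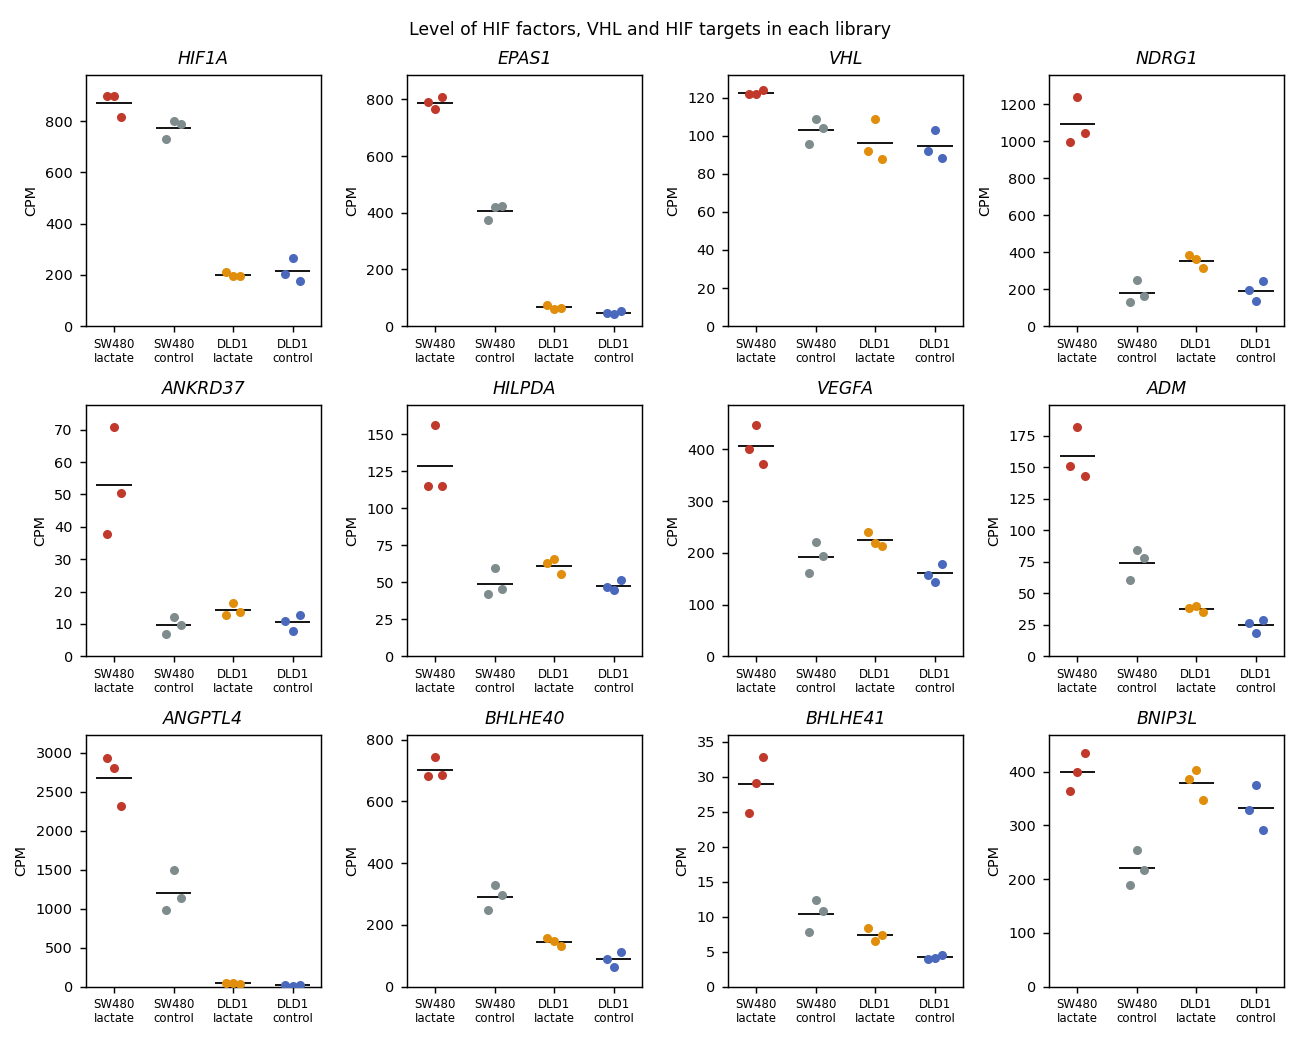
Level in CPM (linear axis from 0) of 12 of the genes in each of the 12 libraries, as points, with the mean of each group of 3 as a bar. For EPAS1, NDRG1, ANKRD37 and the HIF targets in the other panels the SW480 lactate points lie above all SW480 controls. On this CPM axis the DLD1 groups lie closer together, and HIF1A, EPAS1 and ANGPTL4 are far lower in DLD1. Closeness in CPM is not a smaller fold change, since ANGPTL4 has a log2 fold change of 1.45 in DLD1 and 1.18 in SW480.

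Both lipid genes rose. HILPDA, which encodes a lipid droplet protein that inhibits triglyceride breakdown, had 115, 156 and 115 CPM in the SW480 lactate libraries, against 41.8, 59.7 and 45.4 CPM in the controls. The lowest lactate library was nearly double the highest control, and HILPDA rose by 1.43 ± 0.15 (adjusted p 8.80e-05). INSIG2, a regulator of cholesterol synthesis, averaged 106 ± 9.41 CPM with lactate and 70.4 ± 9.88 CPM without, and rose by 0.61 ± 0.13 (adjusted p 0.00704).

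Of 7 transcription regulators besides the factors, 5 rose. BHLHE41, a circadian repressor, had 24.8, 29.1 and 32.8 CPM in the SW480 lactate libraries, against 7.78, 12.4 and 10.8 CPM in the controls. It rose by 1.51 ± 0.17 (adjusted p 1.05e-04) without overlap of the groups. Its relative BHLHE40 had 681, 743 and 687 CPM with lactate, against 247, 329 and 298 CPM without. All lactate libraries were more than double the highest control, and BHLHE40 rose by 1.30 ± 0.16 (adjusted p 2.24e-04). CITED2, which competes with HIF for the coactivators EP300 and CREBBP, had 257, 284 and 238 CPM with lactate and 133, 170.3 and 161 CPM without. ZNF395, a zinc finger gene, had 75.1, 71.7 and 74.4 CPM with lactate and 36.5, 45.5 and 40.1 CPM without. Neither overlapped between the groups, and they rose by 0.78 ± 0.13 (CITED2, adjusted p 0.00149) and 0.88 ± 0.12 (ZNF395, adjusted p 5.77e-04). NFIL3, a basic leucine zipper regulator, rose by only 0.31 ± 0.10 (adjusted p 0.0455), and this call was lost without any 1 of 10 libraries (adjusted p up to 0.226). RORA, a nuclear receptor, differed by 0.28 and SAP30, a subunit of a histone deacetylase complex, by -0.02, and neither was called.

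Of 7 genes for secreted products, 6 rose. VEGFA, the main growth factor of blood vessels, had 400.2, 448 and 371 CPM in the SW480 lactate libraries, against 161, 221 and 193 CPM in the controls. ADM, the precursor of the vasodilator peptide adrenomedullin, had 151, 182 and 143 CPM with lactate, against 60.9, 84.5 and 77.7 CPM without. Both were well separated, and they rose by 1.11 ± 0.13 (VEGFA, adjusted p 1.26e-04) and 1.12 ± 0.16 (ADM, adjusted p 5.92e-04). ANGPTL4, an inhibitor of lipoprotein lipase, was the most abundant secreted target by CPM, at 2929, 2799 and 2313 CPM with lactate and 986, 1491 and 1135 CPM without. It rose by 1.18 ± 0.23 (adjusted p 0.00461). STC1, a glycoprotein hormone, had 769, 913 and 777 CPM with lactate, against 369, 505 and 412 CPM without, and rose by 0.96 ± 0.14 (adjusted p 8.73e-04). The groups of ANGPTL4 and of STC1 did not overlap. LOXL2, a collagen cross-linking oxidase, rose by 0.52 ± 0.12 and IGFBP3, which binds insulin-like growth factors, by 0.43 ± 0.12. LOX, the relative of LOXL2, was at low counts, with 0.811, 0.103 and 0.142 CPM with lactate and 1.22, 0.813 and 0.694 CPM without. Its groups overlapped, and its difference of -1.35 ± 0.59 was not called (adjusted p 0.155). It was called lower without SW480 lactate library 1 (-2.81, adjusted p 0.0116) and with the replicate block and the GC and length trend removed (-1.42, adjusted p 0.0408).

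Of 5 genes of mitochondria and cell death, 2 rose. BNIP3L, a receptor for the removal of mitochondria by autophagy, had 364, 399 and 434 CPM in the SW480 lactate libraries, against 189, 254 and 217 CPM in the controls. It rose by 0.88 ± 0.13 (adjusted p 6.68e-04). FAM162A, a mitochondrial protein linked to cell death in hypoxia, rose by 0.55 ± 0.13. BNIP3, the paralog of BNIP3L with the same role, had 453, 471 and 489 CPM with lactate and 354, 416 and 402 CPM without, and was not called (0.29, adjusted p 0.0643). NOL3, an inhibitor of apoptosis, and AK4, a mitochondrial adenylate kinase, differed by 0.32 and -0.17 and were not called.

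Of 5 genes for cell surface proteins, 2 rose. VLDLR, a lipoprotein receptor, had 76.8, 74.8 and 71.3 CPM in the SW480 lactate libraries, against 40.1, 56.9 and 48.5 CPM in the controls, and rose by 0.64 ± 0.12 (adjusted p 0.00331). EFNA3, an ephrin ligand, rose by 0.88 ± 0.19, while its relative EFNA1 differed by 0.13 and was not called. TMEM45A, a transmembrane protein, and TPBG, a surface glycoprotein, differed by 0.10 and 0.55 and were not called. Of the remaining 4 genes 3 rose. FUT11, a fucosyltransferase gene now named POFUT4, had 110.0, 123 and 122 CPM with lactate and 69.9, 83.8 and 76.9 CPM without, and rose by 0.64 ± 0.12 (adjusted p 0.00300). MIR210HG, the host transcript of the hypoxia-induced microRNA miR-210, rose by 0.70 ± 0.18, and PPFIA4, of the liprin family, by 0.60 ± 0.17. RAB20, a small GTPase, differed by 0.49 ± 0.17 and was not called (adjusted p 0.0739).

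**Figure D2:**
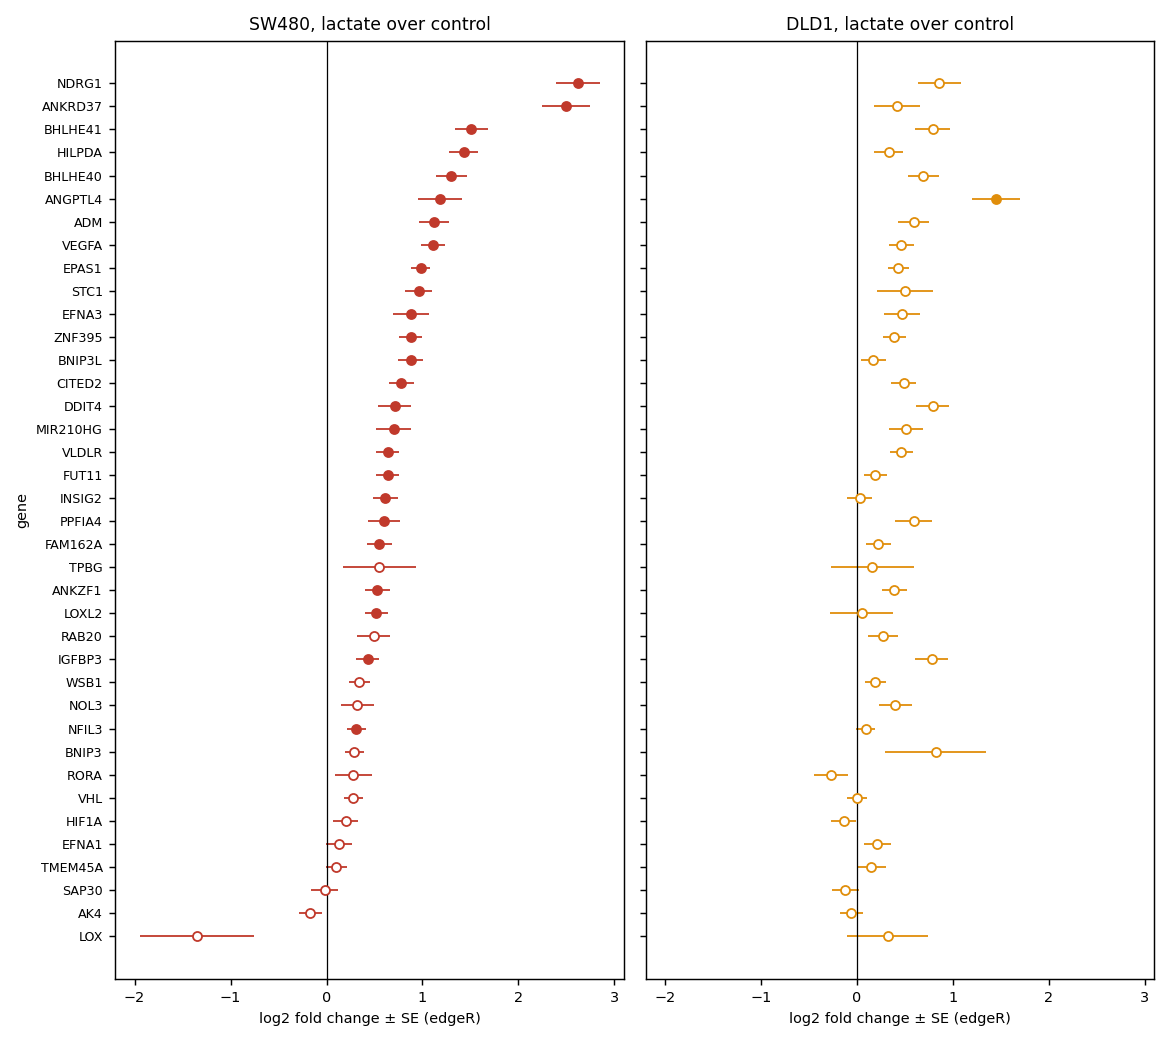
Log2 fold change of lactate over control with its standard error (edgeR) for the 38 tested genes in SW480 (left) and DLD1 (right), in the order of the SW480 values, with filled points for called genes. In SW480, 25 points are filled and all lie above 0, and in DLD1 only ANGPTL4 is filled although 34 of 38 values are above 0.

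Of the 25 called genes, 15 stayed called whichever 1 of the 12 libraries was left out, and these are the called genes whose value in every SW480 library is given above. The count of called genes was 15 without SW480 control 1, where 2.49% of all genes were called higher, and 31 without DLD1 control 2, where 12.7% of all genes were called higher. With the trend along GC content and length removed, 31 were called higher (16.5% of all genes) and AK4 lower (14.5%). These 31 included VHL, BNIP3, RORA, TMEM45A, WSB1, RAB20 and NOL3, which were not called above, but not FAM162A (adjusted p 0.0521). DESeq2 called 29 higher (9.16%).

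The second comparison asked the same of DLD1. Here 1 of 38 genes, ANGPTL4, was called higher and 0 lower, while 0.336% of all tested genes were called higher and 0.0455% lower. ANGPTL4 had 51.1, 40.2 and 35.8 CPM in the DLD1 lactate libraries, against 15.7, 8.57 and 21.1 CPM in the controls. The groups did not overlap, and it rose by 1.45 ± 0.25 (adjusted p 0.0254). The call was lost without DLD1 control 1 or any 1 of the 3 DLD1 lactate libraries, with adjusted p up to 0.166. Over all 12 omissions the fold change lay between 1.18 and 1.74. Its exons overlap RAB11B-AS1 on the opposite strand.

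The other values in DLD1 lay mostly above 0 without passing the test. The median log2 fold change was 0.39 over the 38 genes and 0.02 over all tested genes, with 34 of 38 positive. The lactate libraries lay above all controls for 19 genes, against 10.7% of all tested genes, and below them for 0, against 8.06%. Across genes the DLD1 fold changes followed transcript GC content, with Spearman's rho 0.57 over 15415 genes and 0.54 over the 38, against 0.06 and 0.34 in SW480. The genes described here had a median transcript GC content of 51.4%, against 48.5% for all tested genes. With the trend along GC content and length removed, 13 of the 38 were called higher in DLD1, where 3.24% of genes were. Without DLD1 control 2, 3 were called higher (0.711% of all genes), without control 3, 18 higher (10.7%) and 1 lower (11.1%), and without both, 5 higher (1.96%). DESeq2 called 12 higher (1.93%), and fitting the DLD1 libraries alone called 0.

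NDRG1 had 385, 362 and 314 CPM in the DLD1 lactate libraries, against 195, 137 and 246 CPM in the controls. The groups did not overlap, but the difference of 0.86 ± 0.22 was not called (adjusted p 0.122). DDIT4 had 579, 575 and 528 CPM with lactate and 339, 218 and 401 CPM without, a difference of 0.79 ± 0.17 (adjusted p 0.0679). With the GC and length trend removed DDIT4 was called, at 0.65 (adjusted p 5.69e-04). BHLHE40, at 158, 147 and 130.5 CPM with lactate and 89.1, 64.6 and 112 CPM without, differed by 0.69 ± 0.16 (adjusted p 0.0848). BHLHE41, at 8.35, 6.45 and 7.37 CPM with lactate and 3.87, 4.15 and 4.53 CPM without, differed by 0.79 ± 0.18 (adjusted p 0.0859). For both, every lactate library was above every control. IGFBP3 had 6.48, 5.47 and 5.56 CPM with lactate and 2.83, 3.42 and 3.80 CPM without, a difference of 0.78 ± 0.17 (adjusted p 0.0639). VEGFA, at 240.1, 219 and 214 CPM with lactate and 158, 144 and 179 CPM without, differed by 0.46 ± 0.13 (adjusted p 0.128).

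Of the factors in DLD1, EPAS1 had 73.6, 61.5 and 62.7 CPM with lactate, against 46.3, 42.9 and 54.8 CPM without. The groups did not overlap, and the difference of 0.43 ± 0.11 was not called (adjusted p 0.112). HIF1A had 211, 196 and 195 CPM with lactate and 205, 265 and 178 CPM without, and VHL 91.8, 109 and 87.8 CPM with lactate and 91.8, 103 and 88.3 CPM without. Both overlapped between the groups, and neither was called.

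The lactate effect was then compared between the lines within the same model, as the fold change in DLD1 minus that in SW480. For 3 of 38 genes the difference was called below 0 and for 0 above, against 0.404% and 0.324% of all tested genes. NDRG1 had fold changes of 0.86 in DLD1, which was not called, and 2.62 in SW480, a difference of -1.77 ± 0.31 (adjusted p 0.0187). ANKRD37 had 12.8, 16.5 and 13.7 CPM in the DLD1 lactate libraries, against 10.9, 7.84 and 12.8 CPM in the DLD1 controls, and its difference between the lines was -2.08 ± 0.35 (adjusted p 0.0168). HILPDA had 62.7, 65.7 and 55.3 CPM in the DLD1 lactate libraries, against 47.1, 44.7 and 51.5 CPM in the DLD1 controls, with a difference of -1.10 ± 0.21 (adjusted p 0.0303). All 3 genes thus had the smaller fold change in DLD1, and none was called there. None of the 3 calls held without every single library, since NDRG1 and HILPDA kept theirs in 5 of 12 omissions and ANKRD37 in 8. For the other 35 genes the difference was not called, which does not show that the lines respond alike. EPAS1, for example, had a difference of -0.55 ± 0.15 (adjusted p 0.102). With the GC and length trend removed, the difference was called below 0 for 11 genes, EPAS1 among them, and above 0 for AK4, against 4.63% and 4.96% of all genes, and DESeq2 called 7 below 0 (2.48%).

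The untreated lines were compared next. Of 38 genes, 6 were called higher in DLD1 controls than in SW480 controls and 25 lower, against 33.6% and 37.3% of all tested genes, so that a called difference was common in any gene. The median log2 difference of DLD1 over SW480 was -0.87 for the 38 genes and -0.05 for all tested genes. EPAS1 was lower in DLD1 controls, at 48.0 ± 6.14 CPM against 406 ± 27.9 CPM in SW480 controls, by -3.14 ± 0.11 (adjusted p 2.71e-12). HIF1A was lower as well, at 216 ± 44.4 CPM in DLD1 and 773 ± 35.7 CPM in SW480, by -1.90 ± 0.13 (adjusted p 5.65e-09). Per kilobase of transcript, HIF1A averaged 54.7 CPM and EPAS1 9.29 CPM in DLD1 controls, against 195 and 78.5 CPM in SW480 controls. VHL, at 94.3 ± 7.60 and 103 ± 6.74 CPM, was not called.

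BNIP3 was close to absent in DLD1. It had 1, 2 and 2 counts in the DLD1 controls and 4, 2 and 4 in the DLD1 lactate libraries, against 5495, 5118 and 6950 counts in the SW480 controls. Summed over the controls and scaled to their totals, its level was 4225-fold higher in SW480 than in DLD1, with an exact 95% interval of 1810 to 13013 that covers counting error only. LOXL2, STC1 and ANGPTL4 were also far lower in DLD1 controls, by log2 differences of -9.63, -8.71 and -6.37, and IGFBP3 and TMEM45A by -5.65 and -4.17. LOXL2 averaged 0.537 ± 0.140 CPM in DLD1 controls and 411 ± 33.9 CPM in SW480 controls, and STC1 1.04 ± 0.387 and 429 ± 69.4 CPM. ANGPTL4, the single call for lactate in DLD1, thus started from 15.1 ± 6.28 CPM there and from 1204 ± 259 CPM in SW480.

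In the other direction, RORA had 199, 329.5 and 171 CPM in the DLD1 controls, against 33.8, 33.2 and 33.3 CPM in the SW480 controls. All DLD1 controls were above all SW480 controls, and the difference was 2.74 ± 0.20 (adjusted p 7.87e-09). ZNF395, RAB20, BNIP3L, FAM162A and EFNA1 were higher in DLD1 by 0.89, 0.62, 0.53, 0.52 and 0.33. The 3 genes whose lactate effect differed started from similar levels. NDRG1 differed between the untreated lines by 0.02, ANKRD37 by 0.08 and HILPDA by -0.10, and none was called. Of the 31 called genes, 28 stayed called without any 1 library, the exceptions being VEGFA, EFNA1 and TPBG. These differences moved together with the epithelial and fibroblast markers given above, and their part in the result was not tested.

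**Figure D3:**
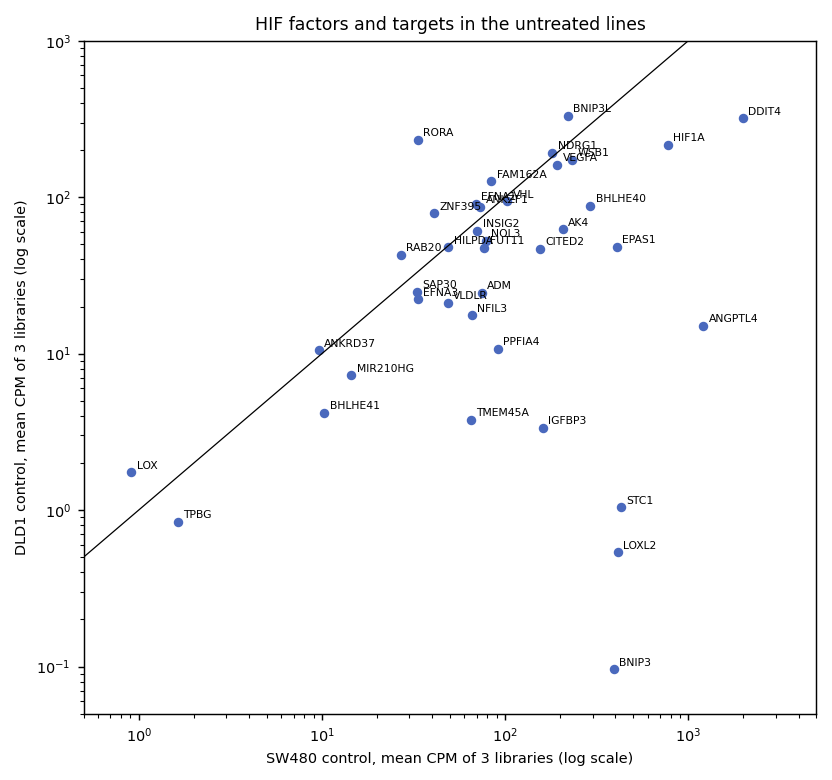
Mean CPM of the 38 tested genes in the DLD1 controls (vertical, log scale) against the SW480 controls (horizontal, log scale), 3 libraries each, with a line where both are equal. BNIP3, LOXL2, STC1 and ANGPTL4 lie far below the line, RORA is the gene farthest above it, and NDRG1, ANKRD37 and HILPDA lie on or near it.

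Libraries of 1 group also differed in the level of these genes. Among the SW480 controls, control 2 had the highest level of 32 of 38 genes and control 1 the lowest of 32, against 35.6% and 35.0% of all tested genes. Control 2 exceeded control 1 by a median log2 difference of 0.35 over the 38 genes and 0.01 over all genes. NDRG1, for example, had 128 CPM in SW480 control 1 and 251 CPM in SW480 control 2. The genes' medians stayed at -0.17 in control 1 and 0.17 in control 2 from the group mean after the GC and length trend was removed. Among the DLD1 controls, control 3 had the highest level of 26 genes and control 2 the lowest of 23, against 40.5% and 43.7% of all tested genes. Here the medians from the group mean were 0.16 in control 3 and -0.19 in control 2, and 0.09 and -0.07 with the trend removed.

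**Figure D4:**
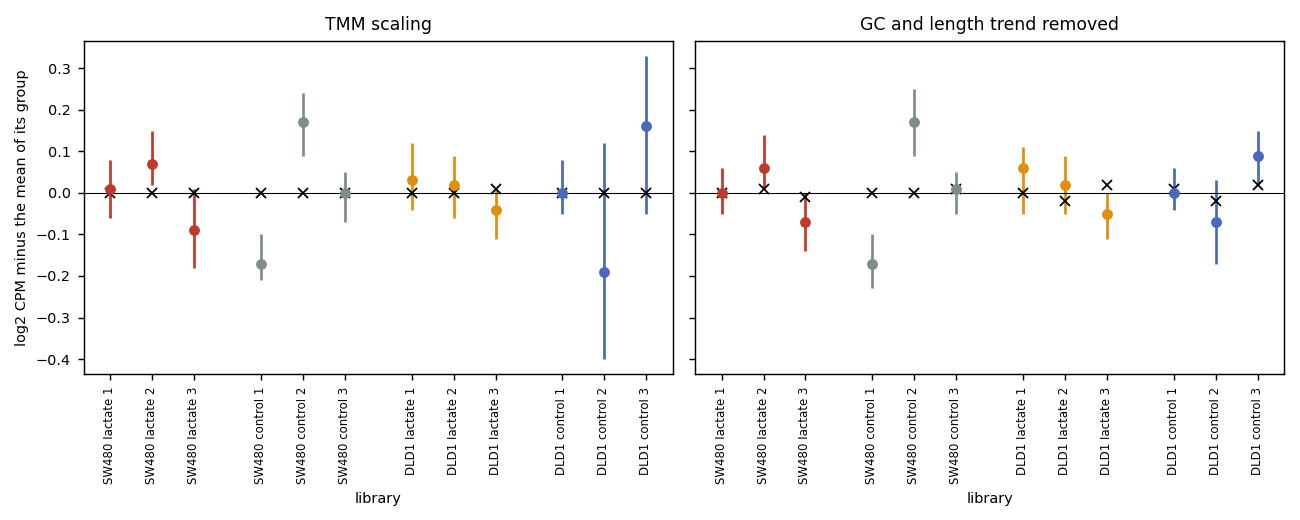
Median log2 CPM of the 38 genes in each library minus the mean of its group (circles), with bars for the quartiles over genes and crosses for the median of all tested genes, under TMM scaling (left) and with the GC and length trend removed (right). SW480 controls 1 and 2 lie on opposite sides of 0 in both panels, while the gap between DLD1 controls 2 and 3 is smaller in the right panel.

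Other genes of the oxygen-sensing pathway were read beside these. Of all tested genes, 6.83% were called higher with lactate in SW480 and 5.59% lower. Of the partners and coactivators, 2 of 5 rose with lactate in SW480, ARNT2 at 9.30 ± 0.776 CPM with lactate and 4.28 ± 1.49 CPM without (1.16 ± 0.19, adjusted p 0.00167) and ARNT by 0.30 (adjusted p 0.0497). Of 3 tested oxygen sensors only EGLN3, a prolyl hydroxylase that is itself a HIF target, rose, at 156 ± 4.23 CPM with lactate and 97.0 ± 12.8 CPM without (0.71 ± 0.13, adjusted p 0.00324). None of the 4 other subunits of the VHL ligase was called in either line. Glycolytic targets rose in 8 of 14 cases and fell in 0, with the smallest p for the hexokinase HK2 (1.35 ± 0.12), the glucose transporter SLC2A3 (1.30 ± 0.13) and the hexokinase HK1 (0.63 ± 0.11). Among 18 tested further HIF targets, 13 rose, among them the MYC antagonist MXI1 (0.82 ± 0.12) and the chemokine receptor CXCR4 (2.57 ± 0.40), and the transferrin receptor TFRC fell (-0.49 ± 0.14).

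In DLD1, 0.336% of all tested genes were called higher with lactate and 0.0455% lower, and 0 partners and 0 sensors were called. The glycolytic targets ALDOC, PFKFB4 and SLC2A1 rose by 1.20, 0.70 and 0.81 (adjusted p 0.0298, 0.0337 and 0.0435), which makes 3 of 14. Of the further targets only the creatine transporter SLC6A8 rose, by 1.29 (adjusted p 0.0234). Over all genes, the 67 calls in DLD1 became 3 to 3838 when 1 library was left out. How these targets fared in those runs is not given here. SLC2A1 rose by 0.81 in DLD1 and 0.83 in SW480, a difference of -0.02 ± 0.22 that was not called, whereas the lactate effect differed between the lines for HK2, by -0.99 (DLD1 minus SW480, adjusted p 0.0168), and for the carbonic anhydrase CA12, by -1.05 (adjusted p 0.0279).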

How the data were processed

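RNA of 12 cultures was sequenced, and the authors deposited unnormalised integer counts of reads for each gene symbol and library. Per the submitters' processing notes, HISAT2 and GRCh38 were used; no source used here gives the version, the counting tool, the annotation or whether strand was used. Each of the 12 columns bears a library's title, and 0 were unused. The exons of 20 of the 39 genes overlap those of another gene in GENCODE on GRCh38, so their reads cannot be fully told apart. The overlap is on the opposite strand for 17 genes and on the same strand for 6, among them HIF1A and HILPDA, and some have both. Gene positions and promoters are those of RefSeq (GRCh38.p14).

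Genes were filtered with filterByExpr by group, which left 17572, scaled by TMM and fitted with 1 mean per group in edgeR 4.0.16 (R 4.3.3), with robust quasi-likelihood, two-sided tests and Benjamini-Hochberg adjustment. SE was derived by dividing the size of the log2 fold change by the root of its F statistic. The scripts were tested on simulated data. Alternatives were median-of-ratios scaling, no filter, a filter at 1 CPM in 3 libraries, DESeq2 1.42.0, replicate number as a block, removal of the GC and length trend (natural splines, 5 degrees of freedom, 15415 genes with a transcript, also with the block), each line alone, and leaving out libraries. Values in every library are given for the factors, VHL, the 14 genes with the smallest p in SW480, and genes called in DLD1, for the effect difference, or extreme between the untreated lines; a few further genes, such as DDIT4, IGFBP3 and LOX, were added after their values were seen. The genes, lists and tests were chosen with earlier results of these data known. All libraries shared 1 estimate of each gene's spread. A p-value for 1 line therefore measures the spread between the cultures of both lines, except where each line was fitted alone.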

Additional observations from a re-analysis of the deposited data

Results flagged for a closer look

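A difference of the lactate effect between the lines was called for 3 of the 38 genes. The fold change in DLD1 minus that in SW480 was -1.77 for NDRG1, -2.08 for ANKRD37 and -1.10 for HILPDA, all on the log2 scale, with adjusted p of 0.0187, 0.0168 and 0.0303 in edgeR. The lactate effect passed the test in SW480 for each gene and in DLD1 for none of them, with adjusted p of 0.122, 0.357 and 0.260 there. Without single libraries the differences ranged between -2.08 and -1.57 for NDRG1, between -2.30 and -1.82 for ANKRD37 and between -1.26 and -0.95 for HILPDA, and the highest adjusted p were 0.0713, 0.0683 and 0.117. The part of DLD1 controls 2 and 3, which stand apart from the other libraries, was measured by leaving each out, and all 3 genes kept their call in both cases. Without DLD1 control 1, which left controls 2 and 3, ANKRD37 kept its call (adjusted p 0.0488). NDRG1 (adjusted p 0.0556) and HILPDA (adjusted p 0.0779) lost theirs in that run. Leaving out controls 2 and 3 at once left 1 DLD1 control, too few to judge a call, and no call is claimed for that run. The differences were then -1.80 for NDRG1, -2.14 for ANKRD37 and -1.09 for HILPDA.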

How the results depend on the processing

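No called value reversed its direction under any alternative run. Over genes and settings, 2835 values kept their side of the threshold, 183 passed it only under an alternative and 97 lost it. The 25 genes called in SW480 became 29 with DESeq2 and 15 to 31 when 1 library was left out. Over all genes, the SW480 count of 2183 was 4775 with the GC and length trend removed, 4783 with the line fitted alone, 4646 with the block and the trend removed together, 4741 without DLD1 controls 2 and 3, and 694 to 4345 without 1 library. AK4 was then called lower in SW480 with the trend removed (-0.21, adjusted p 0.00697). In DLD1 the count of 1 gene was 12 with DESeq2, 13 with the trend removed, 13 with no filter, 16 with block and trend removal, 0 with the line alone, 5 without controls 2 and 3, and 0 to 19 without 1 library. Over all genes the DLD1 count of 67 was 684 (339 higher, 345 lower), 653, 855, 671, 1 and 613 under the same alternatives, and 3 to 3838 without 1 library. For the effect difference, the 3 genes were 7 with DESeq2, 12 with the trend removed, 6 with no filter, 13 with block and trend removal, and 0 to 10 without 1 library. Over all genes its 128 calls were 719, 1477, 837 and 1348 under these, 647 without DLD1 controls 2 and 3, and 8 to 1517 without 1 library. The causes were not tested. The 31 genes called between the untreated lines stayed within 1.5 times that count under every alternative run, and 68.2% of the genes' promoters held the core letters within 200 bases before the start, against 38.1% of all promoters. The labels do not say whether replicate numbers pair the samples. Same-numbered deviations correlated between -0.071 and 0.17, and not every library correlated best with its own number. So few libraries cannot settle whether the cultures were paired. With the replicate block, 6 of the 38 genes were called in DLD1 and 184 of all genes, and the effect difference had 274 calls over all genes. In DLD1, 3253 genes had an unadjusted p below 0.05, against 67 called.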
